A study of Homo sapiens with 7 samples.

Results

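The genes of the HLA class II pathway described here are 9 of the 20163 protein-coding genes on the chromosomes, taken as a named list: HLA-DRA, HLA-DRB1, HLA-DQA1, HLA-DQB1, HLA-DMA, HLA-DMB, HLA-DPA1, HLA-DPB1 and CIITA. CTCF was mapped around them by ChIP-seq, that is, by sequencing the DNA recovered with a CTCF antibody, in K562, an established human myelogenous leukaemia cell line. The 7 samples were 3 of untreated control cells, of which 2 were precipitated with the CTCF antibody and 1 with IgG, and 4 of cells given 10 μM pyridostatin (PDS), a small molecule that binds folded G-quadruplexes (G4s), for 24 h, with 2 for each antibody. The authors used PePr to call peaks from the 2 replicates together, so the measurement is 1 list for each condition, with 33094 peaks in control cells and 32917 after PDS. The lists give neither a value for each replicate nor a number of reads. Depth is therefore unknown, and no test between the conditions was possible. A list holds only the intervals that passed the caller, so an interval without a peak has no measured level of CTCF.

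HLA class II molecules are pairs of an α and a β chain that present peptides from endocytosed proteins to CD4+ T cells. Their promoters carry a shared set of elements bound by RFX, NF-Y and CREB factors, which do little until CIITA, the class II transactivator, docks on them, and CIITA itself is transcribed from alternative promoters, one of which answers to interferon γ. CTCF is a zinc-finger protein that marks insulators and the anchors of chromatin loops, and in class II-expressing B cells it is known at several sites between the HLA class II genes. K562 is known for having no class II molecules on its surface.

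None of the 8 HLA genes had a CTCF peak, in either condition. The span from the start of HLA-DRA to the end of HLA-DPB1 with 50 kb on each side, chr6:32357655-33107473 of hg19, is 750 kb long and held 0 peaks of the control list and 0 of the PDS list. CIITA, on chromosome 16, differed from the HLA genes in both lists. It had 1 peak inside the gene and 6 in the gene or within 50 kb of it, in each list. Inside the gene 1 of the 9 had a peak, compared with 49.6% (control) and 46.2% (PDS) of all coding genes. With 50 kb on either side it was again 1 of the 9, whereas of all coding genes 86.7% did in control cells and 83.7% after PDS. None of the 9 had a peak within 1 kb of its canonical start, compared with 22.6% and 21.3% of all coding genes.

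The span of the HLA genes lay inside a much longer interval without peaks. The first peak before it ended at 28464240 (control) and at 28464250 (PDS), and the first peak after it began at 33459901 in both. Thus chr6:28464251-33459900, 5.0 Mb of sequence with 184 coding genes, held no peak of either list. The peak before the interval lay 6.83 kb (control) and 6.82 kb (PDS) from GPX6, a glutathione peroxidase gene, and 3943 kb before HLA-DRA. It had a fold enrichment over IgG of 30.0 (control) and 18.6 (PDS), which were percentiles 60.3 and 59.9 of their lists, where 100 is the highest fold. The peak after the interval lay 34.58 kb from ZBTB9 and 402.4 kb after HLA-DPB1, with folds of 8.18 and 10.6 at percentiles 4.67 and 16.5. Both bordering peaks were present in both lists.

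The change from many peaks to none was abrupt at both ends. The 5 Mb before the interval held 110 control and 105 PDS peaks, or 22 and 21 per Mb, and the 5 Mb after it 164 and 179 peaks, or 32.8 and 35.8 per Mb. Over the whole of chromosome 6 the lists held 11.4 and 10.5 peaks per Mb, and over all chromosomes 11.6 and 11.5 per Mb. The HLA genes therefore sat in a region whose neighbours on either side carried more peaks than the chromosome on average.

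**Figure D1:**
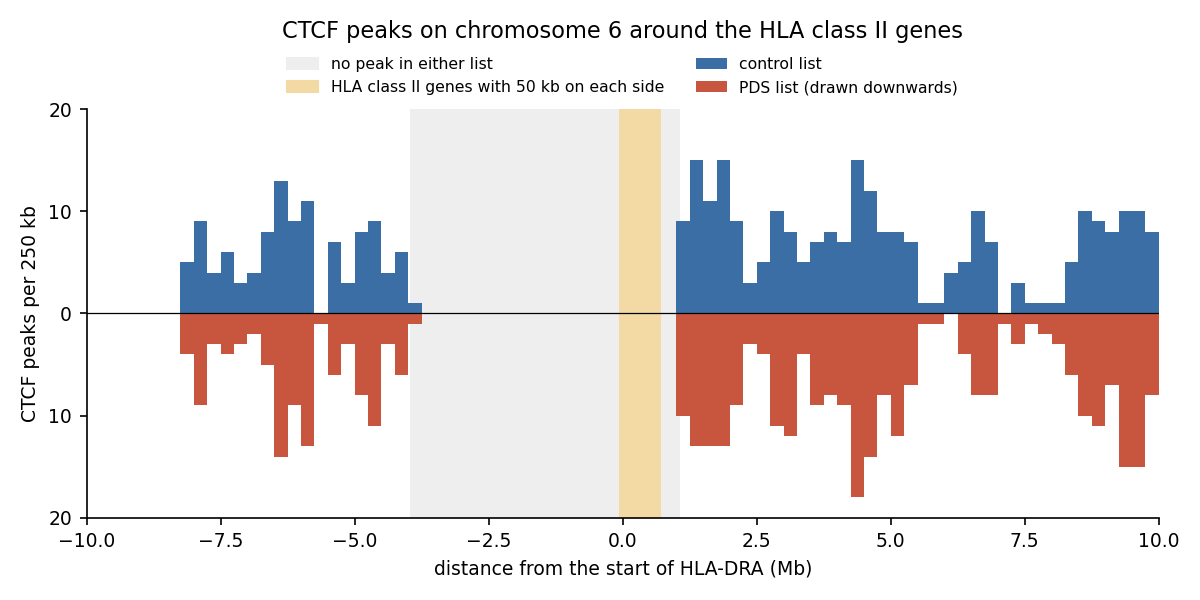
Number of CTCF peaks per 250 kb of chromosome 6 (vertical axis; control list upwards, PDS list downwards) against the distance from the start of HLA-DRA in Mb. The grey interval of 5.0 Mb held 0 peaks of either list, and the span of the HLA class II genes (yellow) lies near its right end, with 164 control and 179 PDS peaks in the 5 Mb that follow.

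Other class II genes and the genes of the neighbouring class I and class III regions shared the absence of peaks. HLA-DRB5, HLA-DQA2, HLA-DQB2, HLA-DOA and HLA-DOB, the remaining class II genes considered, had none. In the same span, TAP1 and TAP2, which carry peptides into the endoplasmic reticulum, the immunoproteasome genes PSMB8 and PSMB9, and BRD2, a bromodomain gene, had none, and of its 21 coding genes none had a peak. Further away, HLA-B, HLA-C and TNF had none. The nearest peak was the one beyond the right end for all 8 HLA genes, at the same distance in both lists, from 402.4 kb for HLA-DPB1 and 411.3 kb for HLA-DPA1 to 902.3 kb for HLA-DRB1 and 1047 kb for HLA-DRA. HLA-DMA and HLA-DMB, whose products form the peptide editor HLA-DM, were 523.0 and 551.1 kb away, and HLA-DQA1 and HLA-DQB1 were 845.1 and 823.7 kb away.

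Long intervals without peaks were frequent, but few held many genes. Over both lists together 340 intervals of at least 1 Mb of sequence had no peak. That of chromosome 6 ranked 11 by length, 1 by number of coding genes, and 5 by GC content, with 44.9% GC. The others had a median of 1 coding gene, a median length of 1.54 Mb and a median GC content of 36.8%, and the largest number of coding genes among them was 53. In coding genes per Mb it ranked 2, with 36.8 against a median of 0.594 and a maximum of 37.9 in the others.

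**Figure D2:**
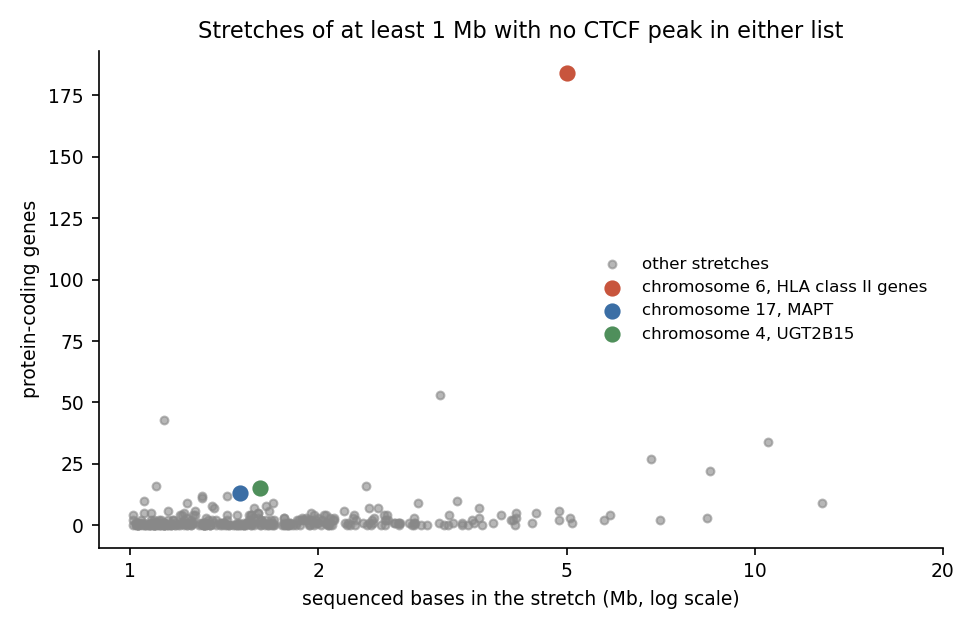
Each point is 1 of the 340 intervals of at least 1 Mb without a peak in either list, by its sequenced length (Mb, log axis) and its number of protein-coding genes. The interval with the HLA class II genes (5.0 Mb, 184 genes) stands above all others, of which the highest had 53 genes, and the intervals with MAPT (13 genes) and UGT2B15 (15 genes) are coloured.

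The sequence of the HLA span was searched for what CTCF and PDS are known to recognise. The CTCF consensus was the 15-bp ChIP-exo consensus that the study's introduction gives, on both strands, and a G4 motif was made of 4 G-runs of 3 or more bases that are separated by 1 to 7 nt, on the plus or the minus strand. The span had 10 consensus matches, 4 on the plus and 6 on the minus strand, or 13.3 per Mb, compared with 7.38 per Mb on chromosome 6 and 8.33 per Mb over all chromosomes. It had 135 G4 motifs, 61 on the plus and 74 on the minus strand, or 180 per Mb, compared with 102 and 133 per Mb. Among the minus-strand motifs were many near-identical copies clustered at chr6:32562594-32563850, between HLA-DRB1 and HLA-DQA1. The density and the strand counts include each copy. As the span held no peak, all 10 consensus matches lay outside peaks, as did 75.1% of all matches for the control list and 79.0% for the PDS list. In the whole interval of 5.0 Mb there were 67 matches and 1368 G4 motifs. None of them could lie in a peak, because the interval was defined by the absence of peaks. The 5 Mb before it had 32 matches, of which 13 lay in control peaks and 9 in PDS peaks, and the 5 Mb after it had 70, of which 28 lay in control peaks and 28 in PDS peaks.

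Of the 10 matches, none of which is covered by a peak of either list, 7 are shown, namely the 5 inside the HLA genes described, the one before HLA-DRA and that of HLA-DRB5 for comparison with its paralogue HLA-DRB1. The other 3 lay in HLA-DOB, in BRD2 and between BRD2 and HLA-DOA. The sequences are read from GRCh37 on the strand of the match, 5′ to 3′, with the 15 bases of the match in capitals and 7 bases on either side.
before HLA-DRA, chr6:32381400-32381414, plus strand: tgcctggCCACCAGAGGGCAGCagagacg
HLA-DRB5, chr6:32490261-32490275, minus strand: caggctcCCAGGAGGAGGCGGCgcgggct
HLA-DRB1, chr6:32552463-32552477, minus strand: ggggctcCCAGGAGGAGGCGGCgcgggct
HLA-DQB1, chr6:32630811-32630825, plus strand: gctgaggTCAGCAGGTGGCACCccaatta
HLA-DMA, chr6:32921164-32921178, minus strand: cattctgCCAGGAGGTGGCACTgctctga
HLA-DMA, chr6:32922969-32922983, minus strand: gattctgCCAGTAGGAGGCACTgatggga
HLA-DPA1, chr6:33037318-33037332, plus strand: ggatcacACAGCAGGGGGCACTtaggctt

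The match before HLA-DRA, the α chain gene of HLA-DR, was intergenic, between BTNL2 and HLA-DRA. That of HLA-DRB1, the β chain gene of HLA-DR, lay in intron 1 of the canonical transcript and in an exon of another annotated transcript, and it was identical in all 15 bases, and in 27 of the 29 shown, to that in intron 1 of its paralogue HLA-DRB5. The matches of HLA-DQB1 and HLA-DPA1 lay in introns 2 and 3 of their canonical transcripts, likewise with an exon of another transcript over them. Of the 2 matches of HLA-DMA, the nearer lay 290 bp and the other 2095 bp upstream of the canonical start, inside introns of longer transcripts. HLA-DRA, HLA-DQA1, HLA-DMB and HLA-DPB1 had no match inside the gene, and no match lay between HLA-DRB1 and HLA-DQA1, where an intergenic element bound by CTCF is known from B cells. The letters give no level of binding.

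G4 motifs were present in 6 of the 8 HLA genes, compared with 87.4% of all coding genes. HLA-DMA and HLA-DPA1 had 7 each, HLA-DPB1 6, HLA-DQA1 3, HLA-DQB1 2 and HLA-DRA 1, and HLA-DRB1 and HLA-DMB had 0. HLA-DPA1 and HLA-DPB1 overlap, so motifs that lie in both were counted for each. The count of HLA-DMA covers its longer transcripts and includes motifs upstream of its canonical start, among them some in an exon of BRD2. Within 1 kb of a canonical start there were 3 motifs at HLA-DPA1 and 1 each at HLA-DRA, HLA-DQA1 and HLA-DMA, so 4 of the 8 genes had one there, compared with 68.5% of all coding genes. The motifs nearest to the starts of HLA-DMA and HLA-DPA1 are given with the runs of at least 3 G in capitals. The motif of HLA-DMA spans the canonical start, and that of HLA-DPA1 lies 252 bp upstream of its canonical start, in intron 2 of the overlapping gene HLA-DPB1.
HLA-DMA, chr6:32920848-32920875, minus strand: GGGagttGGGGaagctGGGttggctGGG
HLA-DPA1, chr6:33048739-33048766, minus strand: GGGcacGGGcccgcGGGGctgccctGGG

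**Figure D3:**
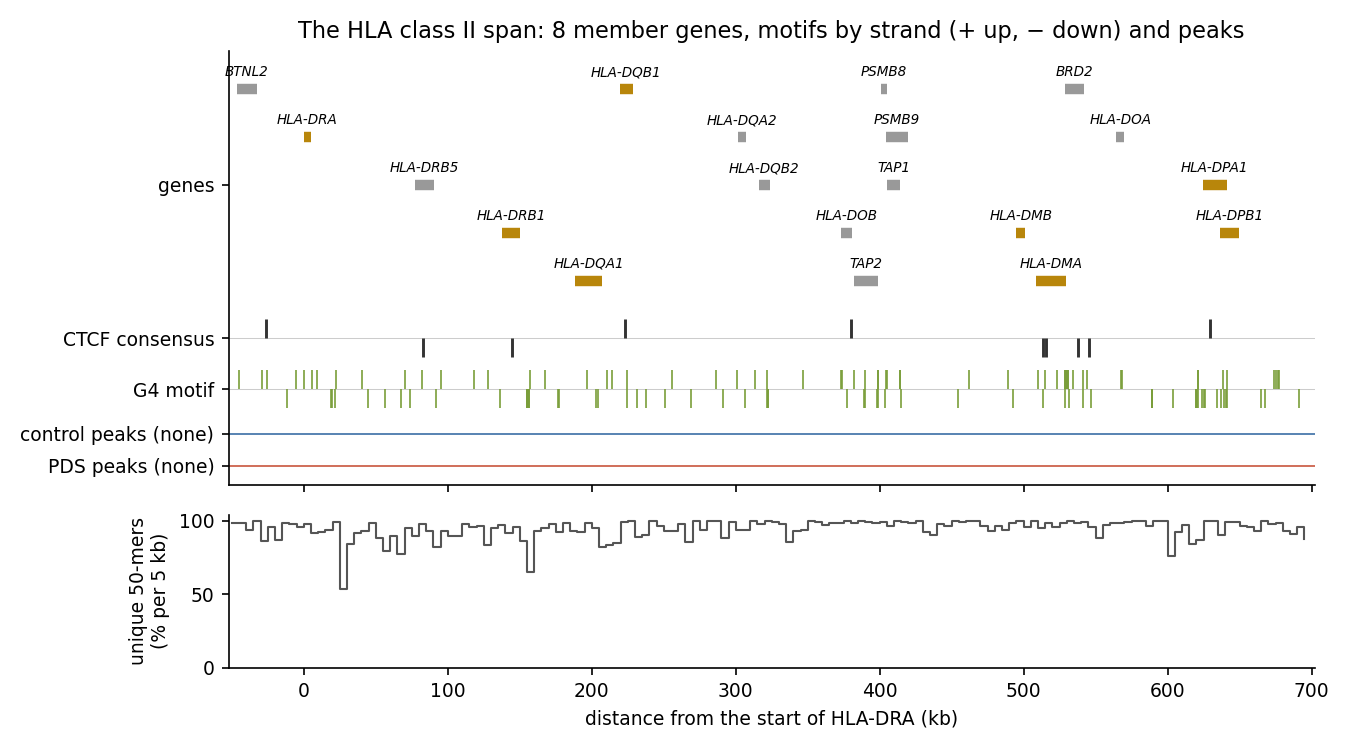
Map of the HLA class II span in kb from the start of HLA-DRA, with the 8 genes described in gold and other named genes in grey, CTCF consensus matches (10) and G4 motifs (135) as ticks, up for the plus and down for the minus strand, and the empty tracks of both lists. The lower track gives the share of 50-mers that occur once in the chromosomes, in percent per 5 kb, which averaged 94.3%.

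Peaks can be called only where reads can be placed. The sample labels describe reads of 50 bases, and the authors removed reads of low mapping quality. The study's methods describe paired-end libraries, whereas the shares given here are of single 50-mers and take no account of a mate. In the HLA span 94.3% of 50-mers occurred once in the primary chromosomes, in the whole interval 91.7%, in the 5 Mb before it 91.4% and in the 5 Mb after it 94.5%. Among the 8 HLA genes described, the share ranged from 94.1% in HLA-DRB1 to 100% in HLA-DMB. The 50-mers over the 10 consensus matches were all unique. Of the 135 G4 motifs, 101 had only unique 50-mers over them and 21 had none. These shares count copies within the primary chromosomes alone.

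The hg19 build also exists with alternate haplotype sequences, copies of variable regions that are stored beside the chromosomes, and the HLA region is one of 3 loci that have them. The others are 17q21.31 with MAPT, the gene of tau, and the UGT2B cluster on chromosome 4, which were looked at after the values for the HLA region had been seen. All 3 of them lay in intervals of at least 1 Mb without a peak of either list. That with MAPT was chr17:43355161-44859540, with 1.5 Mb and 13 coding genes, and that with UGT2B15 was chr4:69137821-70747020, with 1.61 Mb and 15. There were 340 intervals of this kind, and the share of all sequence or coding genes inside them was not computed. Whether 3 of 3 loci is unusual was therefore not tested. Each list held 1 peak on an alternate haplotype sequence, that of 17q21.31, with a fold of 79.2 (control) and 42.6 (PDS). At least that alternate sequence was therefore among those the reads were aligned to. No peak of either list lay on an alternate sequence of chromosome 6. A read that matches both a chromosome and its alternate copies has no unique place, and the part of this in the absence of peaks at the HLA genes was not tested. Why the lists analysed here hold no peak in the interval cannot be told from them, and 0 peaks is a statement about these lists alone. Whether the caller found none there or rows are absent from the lists was not tested either. The genes MTAP, CDKN2A and CDKN2B of 9p21, a segment that K562 is known to lack, had 0 peaks in or within 50 kb of them in both lists, and the nearest was 1876 kb from MTAP. Since other intervals also lack peaks, this does not check the label of the cell line.

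CIITA lies at chr16:10960079-11036878 on the plus strand, with its canonical start at 10971059. The gene with 50 kb on either side, chr16:10910079-11086878, is 177 kb long and also contains DEXI, the start of CLEC16A and the start of TVP23A, which is on the minus strand. Its 6 peaks per list came to 33.9 per Mb, compared with 16.7 (control) and 18.0 (PDS) over chromosome 16. The peaks are numbered here as sites 1 to 6 in the direction of transcription. Site 1 was in intron 16 of CIITA, and sites 2 to 6 were in introns 1, 3, 5, 9 and 10 of CLEC16A, which begins right after CIITA and has a role in the clearance of mitochondria. The 5 sites in CLEC16A thus lay downstream of CIITA, from 11.2 kb to 45.8 kb past its end in the control list. Upstream there was none within 50 kb: the next peak on that side was centred 140.0 kb before the canonical start in both lists, and the next on the other side 223.2 kb after it.

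All 6 peaks of each list overlapped a peak of the other list, so 100% were shared, with an exact (Clopper-Pearson) 95% interval of 54.1 to 100%, which covers counting error only. Over the whole lists 78.0% of control and 78.6% of PDS peaks were shared. No peak at CIITA was thus gained or lost between the lists. The centres of the paired peaks were 35 bp (site 3) to 195 bp (site 6) apart.

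No annotated start of a protein-coding CIITA transcript had a peak within 1 kb. Starts of its other annotated transcripts were not examined. The start farthest upstream, at 10960079, was 52.5 kb from the nearest peak in both lists, the canonical start 41.5 kb and the start at 10972826 was 39.8 kb (control) and 39.7 kb (PDS) away. The start nearest to a peak was that of a short transcript at 11016024, 2.96 kb and 3.02 kb from site 1. Of these starts only that at 10972826 had a G4 motif within 1 kb.

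Site 1, the single peak inside CIITA, was among the strongest of the control list and less prominent in the PDS list. It covered chr16:11012581-11013060 in the control list, with a fold of 65.8, rank 1511 and percentile 95.4. In the PDS list it covered chr16:11012551-11013000, with a fold of 20.9, rank 9903 and percentile 69.9. Folds are relative to 1 IgG sample in control cells and to 2 after PDS, and the median fold was 26.5 in the control and 16.7 in the PDS list, so percentiles within each list are compared here rather than folds. By p-value, where percentile 100 is the smallest p, the same peak moved little, from percentile 71.7 to 70.9, with p-values of 1.10e-11 and 8.13e-13 as the caller gave them.

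Site 3, in CLEC16A, was the highest of the 6 by fold in both lists. It covered chr16:11057821-11058300 with a fold of 69.2 (percentile 96.2) in the control list, and chr16:11057501-11058550 with a fold of 27.0 (percentile 86.3) in the PDS list. Its percentile by p-value was 84.4 and 80.5. Site 6, chr16:11082541-11082900 (control) and chr16:11082151-11082900 (PDS), had folds of 40.3 and 16.3, at percentiles 79.1 and 47.6, and by p-value it was the weakest of the 6, at 42.2 and 47.3.

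By fold, sites 2 and 4 were near the middle of both lists. Site 2, chr16:11047861-11048340 (control) and chr16:11047751-11048350 (PDS), had folds of 30.0 and 16.8, at percentiles 60.2 and 50.5. Its percentile by p-value was 65.7 and 68.7. Site 4, chr16:11065441-11066160 and chr16:11065101-11066150, had folds of 26.0 and 15.8, at percentiles 48.2 and 44.2, whereas its percentile by p-value was 58.8 in the control and 79.7 in the PDS list.

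Site 5 went the other way by fold. It covered chr16:11075581-11075880 with a fold of 13.8 (percentile 14.3) in the control list, and chr16:11075601-11075950 with a fold of 21.1 (percentile 70.7) in the PDS list. By p-value it was the strongest of the 6 in the control list, at percentile 87.6, and was at 53.3 in the PDS list. The 2 measures of the caller thus gave opposite directions for it, as they also did for sites 2, 4 and 6.

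In these 6 pairs, the fold percentile was higher in the PDS list in 1, with a median difference (PDS minus control) of -9.81, and the p-value percentile was higher in 3, with a median difference of 1.13. Over all 24633 pairs of peaks the fold percentile was higher in the PDS list in 51.4%, with a median difference of 0.685, and the p-value percentile in 56.3%. The peaks were wider in the PDS list at 5 of the 6 sites, with a median width of 675 bp against 480 bp, whereas over the whole lists the median was 300 bp against 360 bp and 49.6% of pairs were wider in the PDS list. Site 3 went from 480 to 1050 bp and site 6 from 360 to 750 bp. The widths given came in coarser steps in the control list than in the PDS list. The shortest peaks were 120 bp and 100 bp, and the comparison of widths does not correct for this. By p-value, 5 of the 6 belonged to the stronger 50% in each list. Of all shared peaks, 15711 of 25820 (control) and 16378 of 25886 (PDS) did so. The median width of all shared peaks was 420 bp in the control and 400 bp in the PDS list. With 1 list per condition the spread between replicates is unknown, and these differences could not be tested.

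**Figure D4:**
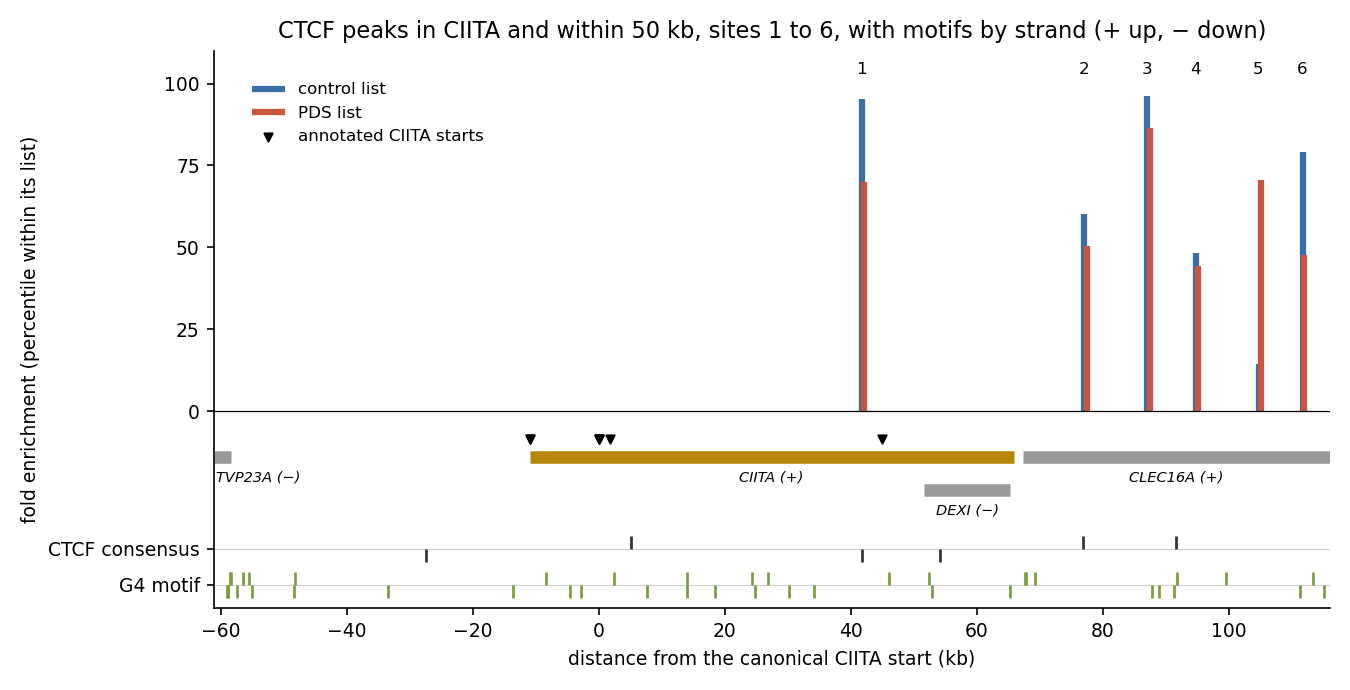
CTCF peaks in CIITA and within 50 kb, against the distance from the canonical CIITA start in kb. Bars give the percentile of the fold within its list (control blue, PDS red and drawn slightly to the right). Below them are the genes, the annotated starts of protein-coding CIITA transcripts (triangles), CTCF consensus matches (6) and G4 motifs (41) by strand. All 6 sites lie downstream of the canonical start, site 1 inside CIITA at 41.8 kb and sites 2 to 6 in CLEC16A.

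**Figure D5:**
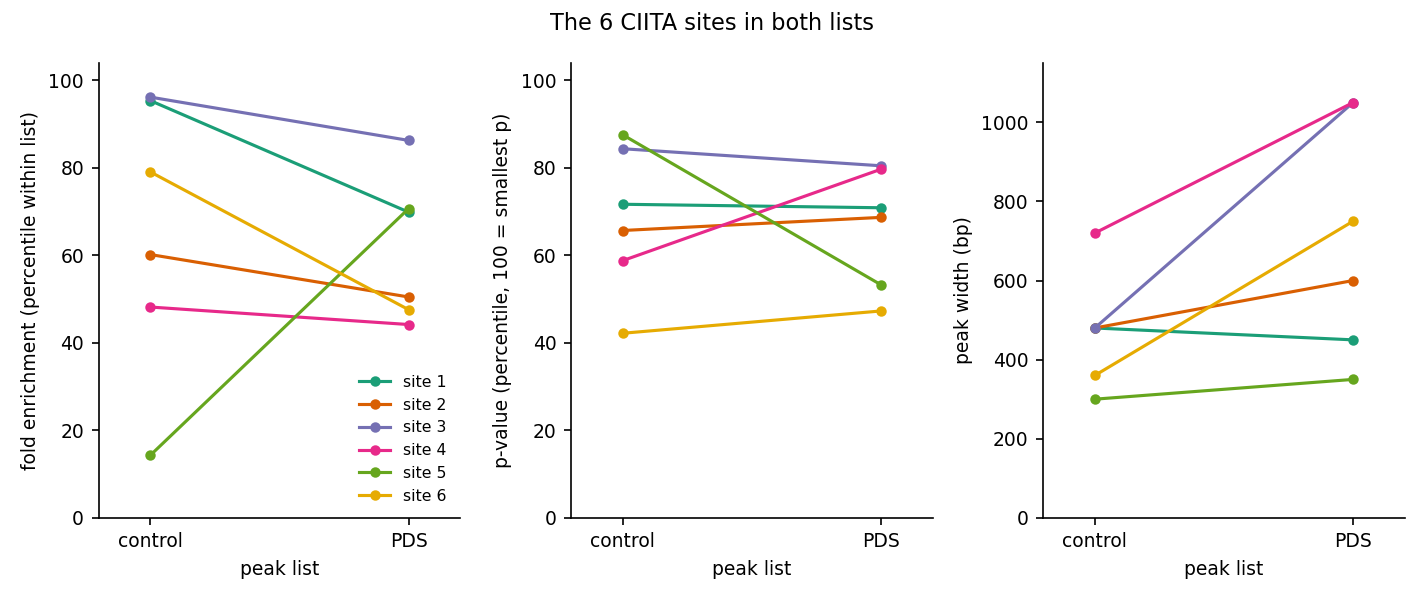
The 6 CIITA sites joined between the control and the PDS list, by percentile of the fold, percentile of the p-value (100 is the smallest p) and peak width in bp. The fold percentile is higher in the PDS list at site 5 alone, the p-value percentile at 3 sites and the width at 5 of 6.

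The CTCF consensus occurred in 2 of the 6 peaks in each list, at sites 1 and 2, compared with 17.3% of all control and 14.4% of all PDS peaks. The 177 kb held 6 consensus matches, 3 on either strand, and the 2 in peaks were on opposite strands: that at site 1 on the minus strand, 31 bp from the centre of the control peak and 14 bp from that of the PDS peak, and that at site 2 on the plus strand, 125 bp and 75 bp from the centres. The 4 outside peaks were 1 upstream of CIITA, 1 in its intron 1, 1 in the untranslated part of its exon 20 and 1 in intron 3 of CLEC16A. A weight matrix made from consensus matches in peaks, which tolerates single mismatches, matched 4 of the 6 control and 6 of the 6 PDS peaks, compared with 54.9% and 46.7% of all peaks, and a wider peak offers more positions to match. The consensus matches at sites 1 and 2 and the best-scoring positions at sites 3 to 6 are shown, again with 15 bases in capitals. For sites 3 and 6 both the control and the PDS peak are given, because the best position of the wider PDS peak lies outside the control peak.
site 1, chr16:11012782-11012796, minus strand: aggcctaCCAGAAGGTGGCAGTgaaacac
site 2, chr16:11047968-11047982, plus strand: tgcatacCCAGCAGATGGCGCCaccgacc
site 3, control peak, chr16:11058050-11058064, plus strand: gcagccgCCGCTAGGTGGTGCTgctgcct
site 3, PDS peak, chr16:11057697-11057711, minus strand: cctctacCCACTAGATGTCAGCagcaccc
site 4, chr16:11065501-11065515, plus strand: attgtgaACAGCAGGGGGCAATgttgtat
site 5, chr16:11075763-11075777, minus strand: cctccacCCACTAGATGTCAGTagcaccc
site 6, control peak, chr16:11082676-11082690, minus strand: agtaagcACTTTACACGGCACTtaattct
site 6, PDS peak, chr16:11082169-11082183, minus strand: caagtacACAACAGATGGCTGCtgaagga

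The best position at site 5 and that of the PDS peak at site 3 were identical in 14 of the 15 bases and in 27 of the 29 shown, and both were on the minus strand. That at site 3 in the control peak lay 3 bp from the peak centre, although the matrix scored it below its threshold, as it did the position at site 6 in the control peak.

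The 177 kb around CIITA held 41 G4 motifs, or 232 per Mb, compared with 214 per Mb over chromosome 16, and 17 of them were inside CIITA. None of the 6 control peaks overlapped one, compared with 16.0% of all control peaks, and 1 of the 6 PDS peaks did, compared with 17.1% of all PDS peaks, so with 6 peaks neither count stood apart from the whole list. That one is at site 6, in the part of the PDS peak that the control peak does not cover, and its runs of G are in capitals.
site 6, chr16:11082234-11082256, minus strand: GGGaagcccaGGGaGGGcaGGGG

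The other genes of the pathway were taken from a list of 24. At their canonical starts 5 of the 24 had a peak within 1 kb, in both lists, a share close to the 22.6% (control) and 21.3% (PDS) of all coding genes. They were NFYA, a subunit of the NF-Y factor of class II promoters, CREB1, which binds the same promoters, IRF1 and JAK2, which take part in the induction of CIITA by interferon γ, and SOCS1, an inhibitor of that signal, which lies on chromosome 16 beyond CLEC16A. SOCS1 had 2 peaks within 1 kb of its start in each list. The nearest was high in both, with folds of 74.4 and 33.1 at percentiles 97.2 and 93.8. That of JAK2, by contrast, was at percentile 86.8 in the control list (fold 48.0) and 15.8 in the PDS list (fold 10.4). The starts of NFYA, IRF1 and CREB1 had percentiles of 59.3, 40.8 and 53.4 in the control and of 13.9, 26.6 and 67.0 in the PDS list. For these starts only the percentile by fold is given, not that by p-value. Over all 24633 pairs the quartiles of its difference (PDS minus control) were -18.5 and 20.6. The differences at these starts were not tested.

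Inside the gene, 11 of the 24 had a peak in each list, close to the 49.6% and 46.2% of all coding genes, and all of these were among the 19 that lie outside the interval on chromosome 6. By role they were 3 of the 7 promoter factors, 7 of the 8 genes of the interferon γ pathway and 1 of the 9 genes for other class II chains and antigen loading. That last one was LGMN, a lysosomal protease gene, whereas CD74, the invariant chain that fills the groove of new class II molecules, had its nearest peak at 22.91 kb in the control and 22.92 kb in the PDS list. The protease gene CTSS was 46.9 kb from one in both lists, and IFI30, a lysosomal thiol reductase gene, 4.61 and 4.62 kb. The lists differed at RFXAP, a subunit of RFX, whose nearest peak was 19.6 kb away in the control and 82.91 kb in the PDS list. They also differed at IFNGR1, a chain of the interferon γ receptor, with 51.95 and 94.67 kb. The control peaks nearest to RFXAP and IFNGR1 were low by fold, at percentiles 30.7 and 8.7. Of all control peaks 78.0% overlapped a PDS peak, so peaks of the control list alone were common. IRF1 had 7 peaks inside its annotated gene in the control and 10 in the PDS list.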

How the data were processed

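The peak lists were deposited by the authors. According to the study's methods and the submitters' processing notes, reads were aligned to hg19 with Bowtie2 2.2.3, filtered with SAMtools for duplicates and low mapping quality, and given to PePr, which called peaks over IgG from the 2 replicates of a condition together. The score and the adjusted p-value of each peak were deposited by the authors and not used. The fold enrichment over IgG and the p-value were computed by the authors before deposition and served here to describe peaks and to rank them within a list. No read counts were in the lists, so depth and replicate error are unknown, and no test was made.

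Positions were read as hg19 and written from base 1. Genes were those of GENCODE 44 lifted to GRCh37, with canonical transcript starts, and sequence came from the GRCh37 primary assembly. Peaks were counted in the span of the HLA genes and at CIITA, each with 50 kb on either side. An overlap of 1 bp or more made a peak shared, and the 24633 pairs were peaks with a single partner in either list. Motifs were searched on both strands. A 50-mer was unique when it occurred once in the chromosomes on either strand. Overlap, motif search and uniqueness were tested on simulated data. Python 3.11.15, numpy 2.4.6, pandas 2.3.3, scipy 1.17.1 and samtools 1.23.1 were used. The genes named are the 9 members, their neighbours, the 24 pathway genes of a list, MTAP, CDKN2A and CDKN2B, and, chosen after values were seen, MAPT and UGT2B15. Some items are not reported here. Members, lists and settings were chosen with earlier results of these data known.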

Additional observations from a re-analysis of the deposited data

How the results depend on the processing

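The HLA span held 0 peaks in both lists with flanks of 0, 20 and 100 kb, with only the stronger 50% of peaks by p-value and with peaks within 200 bp merged. Of 47 alternatives 9 moved a result, where a count had to change by more than 1.5 times, a share at CIITA had to leave the exact 95% interval of its main value, which is wide for 6 peaks, and the share of unique sequence had to change by more than 1 percentage point. Within those intervals, the share with a consensus match in the control list was 33.3%, 66.7% with the weight matrix and 16.7% in the central 200 bp, and with loops of 1 to 12 nt the share with a G4 motif went from 0 to 16.7% (control) and from 16.7 to 33.3% (PDS). With no flank, CIITA had 1 peak in each list, and with 20 kb it had 2. When runs of at least 2 G counted as a G4 motif, 100% of the CIITA peaks had one in both lists. Except for the weight matrix, these alternatives are given without the share over the whole lists. The 100% is therefore not a result about CIITA. In the 200 bp at the centre of the PDS peaks the share with a G4 motif was 0%. With the weight matrix in place of the consensus, the share of PDS peaks with a match was 100%. Unique 100-mers made up 99.1% of the HLA span. With an overlap of 50% of both peaks, or centres at most 100 bp apart, 66.7% of the CIITA peaks were shared in either list, which is within the interval of 54.1 to 100%. No paired analysis was possible because the 2 replicates of a condition went into 1 list, and a replicate cannot be left out of it either. The lists do not show how much depth limits the calls, and with 6 peaks at CIITA every share is imprecise.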

Other observations

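The interval without peaks on chromosome 6 also covers the class I and class III regions. HLA-B and HLA-C, which encode class I chains that present peptides to CD8+ T cells, were 2125 and 2220 kb from the nearest peak, and TNF, a cytokine gene, 1914 kb, in both lists. On the CIITA side, the peaks that flank the 6 sites were present in both lists too. The one centred 140.0 kb before the canonical start had folds of 61.8 (percentile 94.1) in the control and 25.8 (percentile 84.0) in the PDS list. The one 223.2 kb after it, also in CLEC16A, had folds of 20.2 (percentile 29.7) and 22.7 (percentile 76.0).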
